A study of Sorghum bicolor with 12 samples.

Results

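SORBI_3003G292400 is 1 of 34352 loci in a table of root transcripts of sweet sorghum, and the table describes it as a malic enzyme precursor. The locus was chosen by its values in Roma-salt and Roma-CK roots, where earlier results of these data showed it among the strongly induced loci, so the salt contrast in Roma is described here and not tested. Its identifier places it on chromosome 3. It carries the KEGG ortholog K00029 and the enzyme number of an NADP-dependent malic enzyme, its GO terms include malic enzyme activity and cytosol, and it holds 1 annotated and 1 assembled transcript.

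The study grew 2 sweet sorghum lines, Roma, which is sensitive to salt, and M-81E, which tolerates it. Treatment began at the three-leaf stage, and roots were taken from plants after 24 h at 150 mM NaCl (Roma-salt and M-81E-salt) or from plants at 0 mM NaCl (Roma-CK and M-81E-CK). NaCl was raised stepwise to the full concentration before the 24 h, and plants of both treatments grew in the same nutrient solution. There were 3 libraries per group, 12 in all. Whether each library came from 1 plant or from a pool is not stated in the sources used here, so a p-value measures only the spread between these libraries.

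Malic enzymes oxidise malate and remove its carboxyl group, which yields pyruvate, carbon dioxide and a reduced pyridine nucleotide. NADP-dependent forms lie in the cytosol or in plastids and supply NADPH, a reductant for biosynthesis and for the removal of reactive oxygen, and NAD-dependent forms lie in mitochondria. In leaves of C4 grasses such as sorghum and maize, a plastid NADP-dependent form releases carbon dioxide for photosynthesis in the bundle sheath. In roots, malic enzymes lie at a branch between organic acid storage, respiration and the control of cytosolic pH.

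Expression was given as FPKM, a level scaled to the length of the transcript and to the mapped fragments of the library. A differentially expressed gene (DEG) was a locus with an unadjusted p under 0.05 in limma, a linear model with moderated variances on log2(FPKM + 1), whose mean FPKM also differed by at least 1 on the log2 scale. The FPKM summed over all loci was between 267570 and 305680 per library. The number of fragments per library is not known, but the spacing of low values gave depths of 0.815 to 1.04 relative to M-81E-CK1. The paper gives reads and mapping rates by group, with the lowest mapped share in Roma-CK and the highest in Roma-salt. The part of that difference in the results was not tested. Libraries of a group correlated at 0.933 to 0.949 on the log2(FPKM + 1) scale. Roma-salt3 stood apart in the salt response of Roma: of 659 DEGs that were higher in Roma-salt and averaged at least 1 FPKM, 62.1% had their highest Roma-salt value in that library, against 43.7% of all 15978 loci at that level. For SORBI_3003G292400 the ratio is therefore also given without it, and for other loci named below a call that was lost or gained without it is given. Of 17 leaf photosynthesis marker loci, 2 averaged at least 1 FPKM, and both are loci that merge a marker with a neighbouring gene. The list summed to 8.94 to 10.97 FPKM in Roma-salt, 16.9 to 23.9 FPKM in Roma-CK, 10.01 to 23.1 FPKM in M-81E-salt and 8.62 to 31.5 FPKM in M-81E-CK. The 14 loci with a single gene name summed to 1.001 to 1.51 FPKM in Roma-salt and 1.69 to 2.04 FPKM in Roma-CK. In M-81E they summed to 0.974 to 1.89 FPKM with salt and 2.41 to 2.93 FPKM in CK. The small subunit of Rubisco was at most 0.0250 FPKM. Of 16 root marker loci, 11 averaged at least 1 FPKM, and the list summed to 70.5 to 116.4 FPKM in Roma-salt, 141.2 to 326.8 FPKM in Roma-CK, 90.2 to 130.3 FPKM in M-81E-salt and 98.04 to 109.1 FPKM in M-81E-CK. Both summed levels were thus lower in every Roma-salt library than in every Roma-CK library, and their part in the results was not tested. In whole roots, fewer cells of a type and less RNA per cell cannot be told apart.

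SORBI_3003G292400 was abundant in one group only. Its FPKM was 14.96, 15.97 and 54.6 in Roma-salt1, Roma-salt2 and Roma-salt3, and it was 0.406, 0.427 and 0.484 in Roma-CK1, Roma-CK2 and Roma-CK3. The lowest Roma-salt library was 30.9-fold above the highest Roma-CK library, and the groups did not overlap. The mean was 28.5 ± 22.6 FPKM in Roma-salt and 0.439 ± 0.0402 FPKM in Roma-CK (SD, n = 3 each), a ratio of 64.9-fold or 6.02 on the log2 scale. Roma-salt3 was 3.53-fold above the mean of the other Roma-salt libraries, and without it the ratio was 35.2-fold. Among all 32264 loci tested in Roma, 9.6% were DEGs, with 5.15% higher and 4.44% lower in Roma-salt. The locus was selected on this contrast, so nothing is read from its place among these DEGs.

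**Figure D1:**
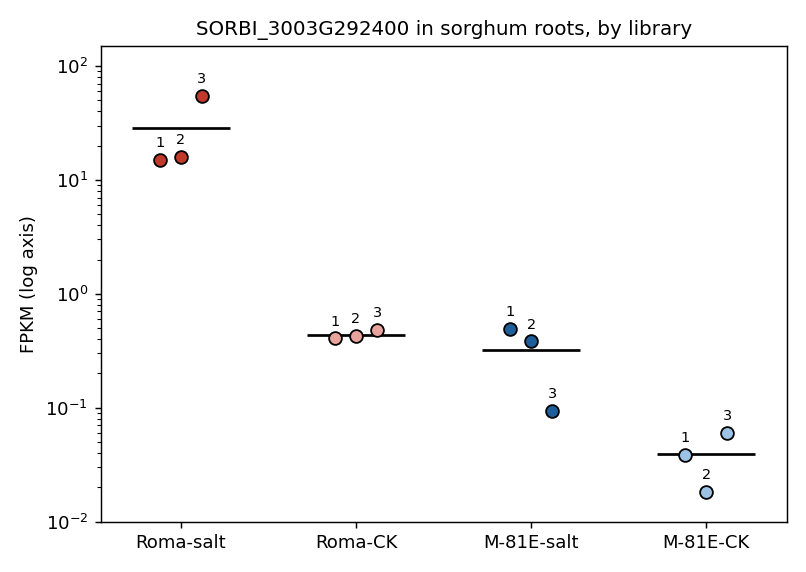
FPKM of SORBI_3003G292400 (vertical axis, log scale) in Roma-salt, Roma-CK, M-81E-salt and M-81E-CK roots. Each point is 1 library with its replicate number, and each line is the mean of 3 libraries: the Roma-salt libraries sit between 14.96 and 54.6 FPKM and the other 9 libraries under 0.5 FPKM.

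M-81E is the line that the choice of the locus did not use. There, SORBI_3003G292400 stood at 0.492, 0.384 and 0.0943 FPKM in M-81E-salt1, M-81E-salt2 and M-81E-salt3, and at 0.0386, 0.0184 and 0.0600 FPKM in M-81E-CK1, M-81E-CK2 and M-81E-CK3. All 3 M-81E-salt libraries were above all 3 M-81E-CK libraries, as were those of 12.2% of the 32212 loci tested in M-81E, and the narrowest gap was 1.57-fold between M-81E-salt3 and M-81E-CK3. The mean was 0.323 ± 0.206 FPKM in M-81E-salt and 0.0390 ± 0.0208 FPKM in M-81E-CK (SD, n = 3 each), a ratio of 8.29-fold or 3.05 on the log2 scale. The difference on the log2(FPKM + 1) scale was 0.34 (SE 0.12), because adding 1 to values this low compresses them. The locus met the thresholds for a DEG (limma, unadjusted p = 0.0300), as did 6.57% of the loci tested in M-81E, with 3.07% higher and 3.5% lower in M-81E-salt. It did not pass after Benjamini-Hochberg adjustment over all loci tested (limma, adjusted p = 0.266). An exact permutation of its 6 values (two-sided) gave p = 0.1, the smallest that 20 assignments allow. The call rested on each library but M-81E-salt3: leaving out any other library of M-81E gave unadjusted limma p-values of 0.0636 to 0.0856. Without M-81E-salt3 the unadjusted p was 0.00032 (limma, adjusted p = 0.0504).

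The 4 groups fell in an order of Roma-salt, Roma-CK, M-81E-salt and M-81E-CK by mean FPKM. Roma-salt was 88.1-fold above M-81E-salt, and no library of the 2 groups overlapped. Roma-CK and M-81E-salt were neighbours that did not separate: their means differed by 1.36-fold, and M-81E-salt1 was above each Roma-CK library. Without salt, Roma-CK was 11.3-fold above M-81E-CK, and the narrowest gap between their libraries was 6.77-fold. These differences between lines share libraries with the contrast that chose the locus and are descriptions. Set against all loci, its level was in the upper range in Roma-salt alone: 90.5%, 91.1% and 97.4% of all loci had a lower FPKM in Roma-salt1, Roma-salt2 and Roma-salt3. In Roma-CK, 38.4 to 43.7% of loci were lower. The shares were 47.0%, 44.0% and 32.0% in M-81E-salt1, M-81E-salt2 and M-81E-salt3, and 23.6 to 28.4% in M-81E-CK.

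No other locus in the table is described as a malic enzyme, and most descriptions name no function, so the family was taken from the GO term malic enzyme activity. It held SORBI_3003G292400 and 8 other loci. NADP-dependent forms were SORBI_3003G036000, SORBI_3003G036200, SORBI_3003G280900, SORBI_3009G069600, SORBI_3009G108700 and SORBI_3005G154850, and NAD-dependent forms were SORBI_3001G201700 and SORBI_3002G309400. SORBI_3003G036200 is the locus known for the C4 leaf enzyme, and SORBI_3003G036000 is its close neighbour by identifier and by sequence. How reads that match both were assigned is not given in the sources used here, so their split is uncertain. In these roots SORBI_3003G036200 was low, at 1.05 to 2.19 FPKM in Roma-salt, 1.22 to 2.65 FPKM in Roma-CK, 1.67 to 2.52 FPKM in M-81E-salt and 1.91 to 2.32 FPKM in M-81E-CK. A further 5 loci carry K00029 without that GO term and are left out below, except where a list by ortholog is given. Among them SORBI_3005G154800 alone was a DEG with salt, beside 9.6% of all loci tested in Roma. It was 0.496 to 0.766 FPKM in Roma-salt and 1.29 to 1.44 FPKM in Roma-CK (log2 ratio -1.22, limma adjusted p = 0.0866). It was named after its values were seen.

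Of the 8 other loci, 0 were DEGs in Roma and 0 in M-81E, beside 9.6% and 6.57% of all loci tested. Their median log2(FPKM + 1) difference between salt and CK was -0.07 in Roma, against 0.0026 over all loci, and 0.06 in M-81E, against 0.0075 over all loci. In Roma, 3 of the 8 had an unadjusted limma p under 0.05 with log2 ratios of less than 1 in size, all lower in Roma-salt. SORBI_3003G280900 was 45.7, 45.9 and 44.0 FPKM in Roma-salt and 63.5, 58.6 and 60.4 FPKM in Roma-CK (difference -0.42, SE 0.08, limma adjusted p = 0.0640). The others were SORBI_3005G154850 (difference -0.46, SE 0.13) and SORBI_3002G309400 (difference -0.29, SE 0.10). In M-81E another 3 comparisons had an unadjusted p under 0.05, with differences of 0.28 to 0.29 and higher values in M-81E-salt: SORBI_3001G201700, SORBI_3009G108700 and SORBI_3002G309400.

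**Figure D2:**
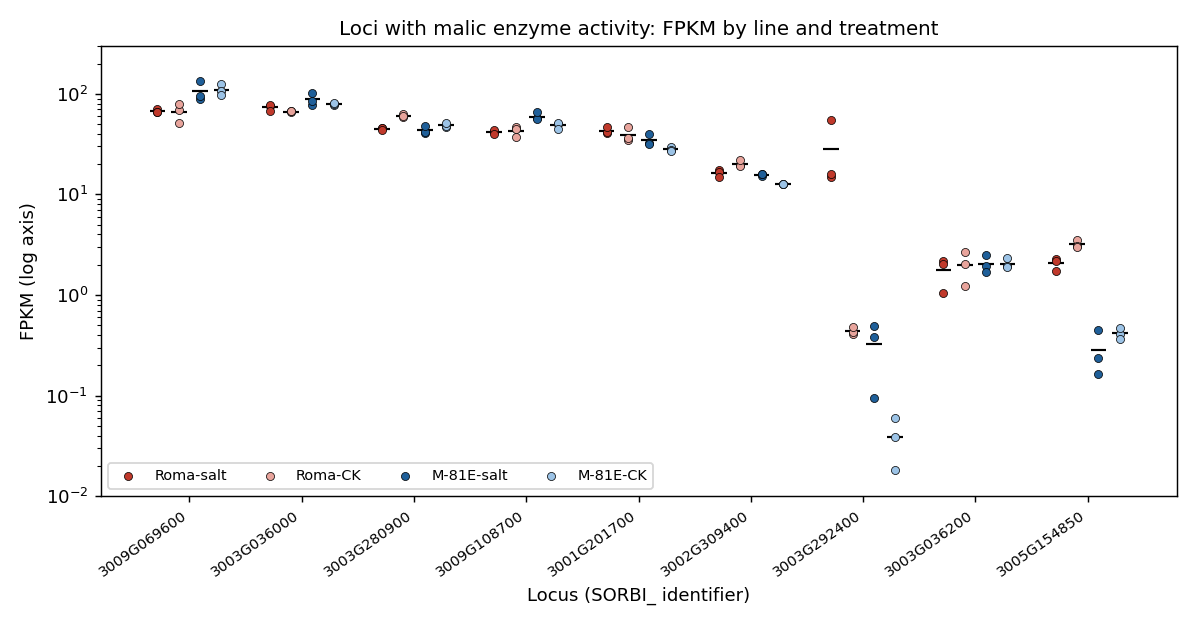
FPKM (vertical axis, log scale) of the 9 loci with malic enzyme activity, ordered by mean level, in Roma-salt, Roma-CK, M-81E-salt and M-81E-CK. Points are libraries and short lines are means of 3: SORBI_3003G292400 spans 0.0184 to 54.6 FPKM, while SORBI_3003G280900 stays between 41.3 and 63.5 FPKM.

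The summed level of the other malic enzymes overlapped between salt and CK in both lines. They summed to 282.6 to 296.2 FPKM in Roma-salt and 291.7 to 315.8 FPKM in Roma-CK, and to 314.9 to 409.2 FPKM in M-81E-salt and 317.9 to 346.6 FPKM in M-81E-CK. SORBI_3003G292400 made up 4.81%, 5.12% and 16.2% of the summed malic enzyme FPKM in Roma-salt1, Roma-salt2 and Roma-salt3. Its share was 0.136 to 0.153% in Roma-CK. In M-81E-salt1, M-81E-salt2 and M-81E-salt3 it was 0.156%, 0.117% and 0.0230%, and in M-81E-CK it was 0.00559 to 0.0189%. Among the 9 loci it ranked 7, 7 and 3 in Roma-salt1, Roma-salt2 and Roma-salt3, and last in every CK library of both lines. Even in Roma-salt3 its 54.6 FPKM was below the 67.7 FPKM of SORBI_3003G036000 and the 66.8 FPKM of SORBI_3009G069600.

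The salt response of SORBI_3002G309400, an NAD-dependent malic enzyme, differed between the lines. It was 17.5, 16.8 and 14.8 FPKM in Roma-salt and 19.4, 19.2 and 22.1 FPKM in Roma-CK, and in M-81E it was 15.2, 16.1 and 15.8 FPKM with salt and 12.7, 12.6 and 12.7 FPKM in CK. All Roma-salt libraries were below all Roma-CK libraries, and all M-81E-salt libraries were above all M-81E-CK libraries. The interaction of line and treatment was -0.58 (SE 0.11, limma adjusted p = 0.0380), beside 1.81% of all 34352 loci that passed an adjusted p of 0.05. Of the 8 loci it was the single one to pass, and its own adjusted p ranged from 0.0205 to 0.107 over 18 alternatives and missed 0.05 in 14 of them. For SORBI_3003G292400 the interaction was 3.76 (SE 0.56), given as a description because it includes the Roma contrast by which the locus was chosen.

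**Figure D3:**
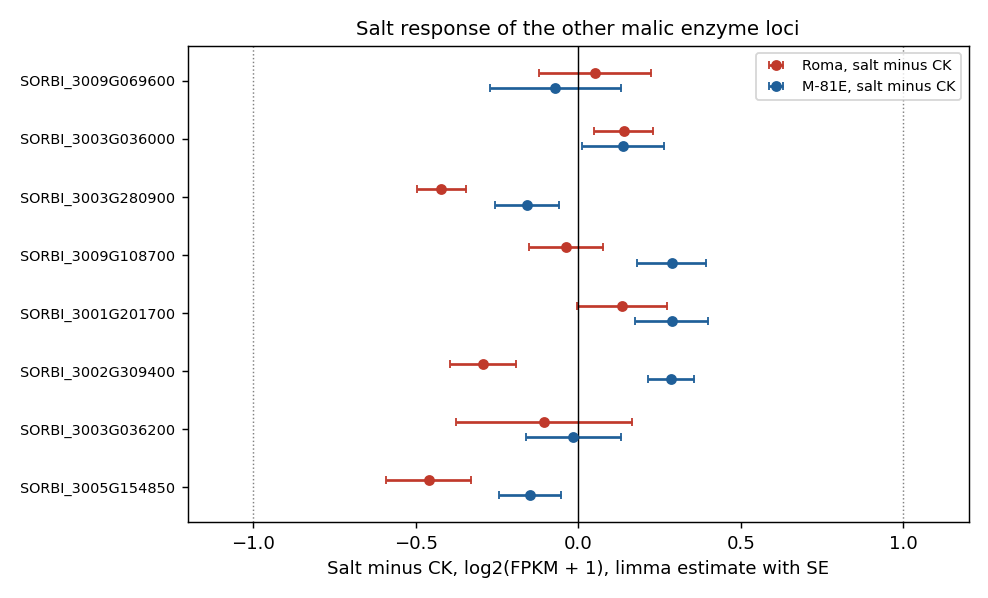
Difference between salt and CK on the log2(FPKM + 1) scale (horizontal axis) for the 8 other malic enzyme loci, in Roma and in M-81E. Points are limma estimates with their SE and dotted lines mark a difference of 1 in size: all estimates lie between -0.46 and 0.29, and those of SORBI_3002G309400 lie on opposite sides of 0.

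Between the lines without salt, 1 of the 8 other malic enzyme loci was a DEG, beside 26% of the 32931 loci tested. SORBI_3005G154850 was 3.56, 3.10 and 2.999 FPKM in Roma-CK and 0.413, 0.361 and 0.473 FPKM in M-81E-CK, 7.74-fold higher in Roma-CK (log2 ratio 2.95, limma adjusted p = 0.00093). It was also higher in Roma-CK with libraries rescaled to a common median FPKM. SORBI_3002G309400 was 1.59-fold higher in Roma-CK, with a log2(FPKM + 1) difference of 0.63 as deposited and 0.20 with a common median (limma adjusted p = 0.271), and SORBI_3009G069600 was 1.66-fold higher in M-81E-CK and became a DEG in that direction with the common median. The direction for SORBI_3003G280900 depended on scaling: its difference was 0.31 as deposited and -0.14 with a common median. That rescaling moved the median difference of all loci between lines from 0.11 as deposited to -0.0058, and the share of DEGs higher in Roma-CK was 65.2% as deposited and 45.2% after rescaling.

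Enzymes that make, carry or use malate and pyruvate were taken from the table's annotation. The families around malic enzyme held 89 loci, namely malate dehydrogenase, phosphoenolpyruvate carboxylase, phosphoenolpyruvate carboxykinase, pyruvate phosphate dikinase, malate transport, fumarase, other NADPH-producing dehydrogenases, pyruvate kinase, pyruvate decarboxylase, lactate dehydrogenase and alanine aminotransferase. In Roma, 3 of 87 tested were DEGs higher in Roma-salt and 6 were lower, which is 10.3% beside 9.6% of all loci, and without Roma-salt3 the counts were 3 and 3. In M-81E, 3 of 89 were higher and 0 lower, 3.37% beside 6.57% of all loci. The median difference of the families was -0.04 in Roma and 0.0060 in M-81E. The counts for single families below stand beside the same shares of all loci, 9.6% in Roma and 6.57% in M-81E. No family was tested against those shares.

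Among enzymes upstream of malate, 1 of 10 phosphoenolpyruvate carboxylase loci, which form oxaloacetate from phosphoenolpyruvate, was a DEG in Roma. SORBI_3003G301800 fell to 6.11, 4.89 and 5.20 FPKM in Roma-salt, against 15.6, 11.8 and 6.44 FPKM in Roma-CK (log2 ratio -1.06, limma adjusted p = 0.224), and without Roma-salt3 the call was lost at a log2 ratio of -1.04. In M-81E it was 8.60, 9.03 and 6.81 FPKM with salt and 3.71, 4.34 and 4.96 FPKM in CK, with a log2 ratio of 0.91 that missed the fold threshold. Its interaction of line and treatment did not pass (limma adjusted p = 0.0541). The groups did not overlap in either line. Of 15 malate dehydrogenase loci, which interconvert oxaloacetate and malate, SORBI_3010G072900 was the single DEG in Roma, lower in Roma-salt at 0.185 to 0.301 FPKM against 0.386 to 0.787 FPKM in Roma-CK, and none was a DEG in M-81E. Of 15 malate transport loci, SORBI_3002G233700 was higher with salt in both lines and SORBI_3004G250400 in M-81E, all under 1 FPKM. Without Roma-salt3 the Roma call of SORBI_3002G233700 was lost at a log2 ratio of 1.31, and SORBI_3006G075200 became the Roma DEG of this family at a log2 ratio of 1.71. None of these loci, nor SORBI_3010G072900, falls under the rule for named loci, and they were chosen after their values were seen.

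Phosphoenolpyruvate carboxykinase, which turns oxaloacetate back into phosphoenolpyruvate, had a lower transcript level in Roma-salt at its annotated locus. Its single locus, SORBI_3001G432800;SORBI_3001G432900, had 21.7, 35.8 and 18.04 FPKM in Roma-salt and 53.7, 72.0 and 101 FPKM in Roma-CK, 2.996-fold lower in Roma-salt (log2 ratio -1.58, limma adjusted p = 0.0866). The locus merges neighbouring gene names, so its level cannot be assigned to a single gene. The M-81E values were 190, 184 and 155 FPKM with salt and 190, 186 and 138 FPKM in CK. The interaction did not pass the adjustment (limma adjusted p = 0.0808). Pyruvate phosphate dikinase, which regenerates phosphoenolpyruvate from pyruvate, had 1 DEG of 2 loci in M-81E and 0 in Roma. SORBI_3001G326900 rose to 3.46, 1.98 and 1.95 FPKM in M-81E-salt, against 1.38, 0.770 and 0.763 FPKM in M-81E-CK (log2 ratio 1.34, limma adjusted p = 0.195). The other, SORBI_3009G132900, was 2.60, 2.45 and 0.885 FPKM in Roma-salt and 0.601, 1.25 and 0.704 FPKM in Roma-CK. It became a DEG in Roma without Roma-salt3 (log2 ratio 1.57, limma adjusted p = 0.157) and was named after its values were seen.

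Loci that use pyruvate, the product of malic enzyme, moved in both directions in Roma. Pyruvate decarboxylase, the first step of ethanol fermentation, had 2 DEGs of 5 loci. SORBI_3001G405500 fell to 291, 297 and 89.1 FPKM in Roma-salt, against 501, 779 and 1150 FPKM in Roma-CK (log2 ratio -1.84, limma adjusted p = 0.165). SORBI_3003G061300 rose to 12.8, 15.3 and 19.9 FPKM in Roma-salt, against 5.46, 5.86 and 6.63 FPKM in Roma-CK (log2 ratio 1.42, limma adjusted p = 0.0382). Alanine aminotransferase, which exchanges pyruvate and alanine, had 1 DEG of 4 loci: SORBI_3002G006600 was 41.2, 38.9 and 57.0 FPKM in Roma-salt and 20.3, 20.6 and 21.5 FPKM in Roma-CK (log2 ratio 1.13, limma adjusted p = 0.0432), and without Roma-salt3 the log2 ratio was 0.94, under the fold threshold (limma adjusted p = 0.0393). SORBI_3001G260800 of the same family missed the fold threshold, at 62.8, 66.0 and 54.1 FPKM in Roma-salt and 103.8, 90.4 and 141 FPKM in Roma-CK. Its levels in M-81E were 74.1, 80.2 and 76.8 FPKM with salt and 62.6, 59.8 and 63.9 FPKM in CK. Its interaction of line and treatment passed, at -1.15 (SE 0.21, limma adjusted p = 0.0309), and missed the threshold in 10 of 18 alternatives, among them the fit without Roma-salt3 (limma adjusted p = 0.0593). It was named after its values were seen. None of 12 pyruvate kinase loci was a DEG in either line. Of 5 lactate dehydrogenase loci, 1 was a DEG in Roma, lower in Roma-salt, and without Roma-salt3 there were 0. In M-81E, 0 of these 5 were DEGs.

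Of 17 loci tested in Roma for the other NADPH-producing dehydrogenases, 0 were higher and 1 was lower in Roma-salt, and of 19 in M-81E, 0 were DEGs. The NADP-dependent isocitrate dehydrogenase SORBI_3003G241500, under the fold threshold, was 140.6, 146.2 and 174.8 FPKM in Roma-salt and 103.6, 85.97 and 81.4 FPKM in Roma-CK (log2 ratio 0.77, limma adjusted p = 0.0718). The M-81E levels were 114.1, 120.8 and 104.7 FPKM with salt and 82.4, 91.98 and 88.2 FPKM in CK (log2 ratio 0.37, limma adjusted p = 0.195), and salt and CK libraries did not overlap in either line. The DEG, lower in Roma-salt, was SORBI_3002G338250, which was listed at 0, 0 and 0.0407 FPKM in Roma-salt and at 0.104, 0.772 and 0.835 FPKM in Roma-CK, and its call was lost without Roma-salt3. Both were named after their values were seen, and a value of 0 in this table can be an estimate that failed.

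Broader lists held shares of DEGs from below to above those of all loci tested, 9.6% in Roma and 6.57% in M-81E. Of 140 KEGG pyruvate metabolism loci tested in Roma, without SORBI_3003G292400, 2 were higher and 8 lower in Roma-salt, 7.14% in all. Without Roma-salt3, 3 were higher and 4 lower, and without Roma-salt1 there were 6 DEGs. In M-81E, 3 of 142 were higher and 1 lower, 2.82% in all, and there were 7 DEGs without M-81E-CK2, without M-81E-salt1 or without M-81E-salt3. The higher loci in Roma were the pyruvate dehydrogenase locus described next and SORBI_3002G215700, an aldehyde dehydrogenase. The latter is annotated with the ortholog K14085 and the enzyme numbers EC:1.2.1.31 and EC:1.2.1.8. Only the last of these numbers stands for betaine-aldehyde dehydrogenase. SORBI_3002G215700 had 40.0, 42.6 and 56.3 FPKM in Roma-salt and 14.1, 16.4 and 18.1 FPKM in Roma-CK (log2 ratio 1.51, limma adjusted p = 0.0298). In M-81E it had 14.7, 13.7 and 11.1 FPKM with salt and 7.72, 8.98 and 9.61 FPKM in CK, without overlap. That log2 ratio of 0.58 was under the fold threshold (limma adjusted p = 0.166), and the interaction did not pass (limma adjusted p = 0.0727). Of the citrate cycle loci, 3 of 72 were higher and 4 lower in Roma (9.72%), with the same counts without Roma-salt3, and 3 of 73 were higher and 2 lower in M-81E (6.85%), where there were 2 DEGs without M-81E-CK3 and 8 without M-81E-salt1. The wider carbon metabolism list had 22 higher and 32 lower of 446 in Roma (12.1%), 23 higher and 29 lower of 445 without Roma-salt3, and 19 higher and 14 lower of 447 in M-81E (7.38%).

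Likeness to SORBI_3003G292400 was measured as Pearson's r of log2(FPKM + 1) over the 12 libraries, for 16180 loci that averaged at least 1 FPKM. The values share libraries, and the 3 Roma-salt libraries carry most of the spread, so r is a description. The locus was chosen as high in Roma-salt, so loci alike had to be high there too, and no test is given for those named by their likeness. Of these loci, 215 (1.33%) had r above 0.9, all 215 had their 3 highest values in Roma-salt, and 194 were highest in Roma-salt3. Of the 215, 137 were DEGs higher in Roma-salt, beside 5.15% of all loci tested in Roma. Such DEGs at a mean of at least 1 FPKM numbered 659 in all. DEGs higher in M-81E-salt numbered 23 of the 215, beside 3.07% of all loci tested in M-81E. Both percentages also cover loci that averaged less than 1 FPKM, which the 215 do not. The libraries of both lines entered r, so neither count is a test. The 5 most alike were SORBI_3003G144500, SORBI_3003G271800, SORBI_3001G109000, SORBI_3010G101300 and SORBI_3006G050600, with r of 0.989 to 0.994. One of these has a function in the table, SORBI_3010G101300, and the other 4 carry no ortholog.

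SORBI_3010G101300 is annotated as the alpha subunit of pyruvate dehydrogenase E1, which opens the conversion of pyruvate to acetyl-CoA. It was 4.55, 5.18 and 9.52 FPKM in Roma-salt and 0.851, 0.763 and 0.655 FPKM in Roma-CK, 8.48-fold higher in Roma-salt and 6.43-fold without Roma-salt3. Its M-81E values were 0.459, 0.349 and 0.303 FPKM with salt and 0.219, 0.118 and 0.0861 FPKM in CK, 2.63-fold higher in M-81E-salt. All salt libraries were above all CK libraries in both lines. Of the 12 loci of the E1 component, SORBI_3002G259600, annotated as a beta subunit, was lower in Roma-salt (log2 ratio -1.11, limma adjusted p = 0.0699), and the other 10 were not DEGs in either line.

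SORBI_3002G316900, annotated as aconitase, which isomerises citrate to isocitrate, ranked 8 by r. It had 12.1, 14.7 and 29.028 FPKM in Roma-salt and 0.628, 0.558 and 0.789 FPKM in Roma-CK, 28.3-fold higher in Roma-salt and 20.4-fold without Roma-salt3. Its M-81E values were 1.56, 1.21 and 0.779 FPKM with salt and 0.154, 0.167 and 0.0823 FPKM in CK, 8.80-fold higher in M-81E-salt. The order of its 4 groups differed from that of SORBI_3003G292400 in 1 place, since M-81E-salt was above Roma-CK except in M-81E-salt3, which was below Roma-CK3. Of 4 aconitase loci the other 3 were not DEGs in either line, and 0 of 8 citrate synthase loci were. Without Roma-salt3, citrate synthase SORBI_3009G129500 was a DEG in Roma, lower in Roma-salt at a log2 ratio of -1.01, and it was named after its values were seen. The aconitase, pyruvate dehydrogenase and citrate synthase families were listed after these likeness values were seen.

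SORBI_3009G215700, a late embryogenesis abundant (LEA) locus of the class that protects proteins and membranes during water loss, was set beside SORBI_3003G292400 because both had stood out in earlier results. It had 335, 398 and 920 FPKM in Roma-salt, 5.43, 7.43 and 5.74 FPKM in Roma-CK, 16.4, 28.3 and 8.32 FPKM in M-81E-salt, and 5.54, 5.40 and 4.63 FPKM in M-81E-CK. Both loci were highest in Roma-salt3 and, within M-81E-salt, lowest in M-81E-salt3. Roma-salt3 exceeded the mean of the other Roma-salt libraries by 2.51-fold for the LEA locus and by 3.53-fold for SORBI_3003G292400, and the mean of M-81E-salt1 and M-81E-salt2 was 4.64-fold above M-81E-salt3 for SORBI_3003G292400. Over 12 libraries r was 0.970 and Spearman's rho was 0.811, and over the 9 libraries without Roma-salt r was 0.459. The ranges of the LEA locus in Roma-CK and M-81E-CK overlapped, and those of SORBI_3003G292400 did not. The interaction of line and treatment was 4.68 (SE 0.62) for the LEA locus, given as a description because earlier results had picked it out.

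**Figure D4:**
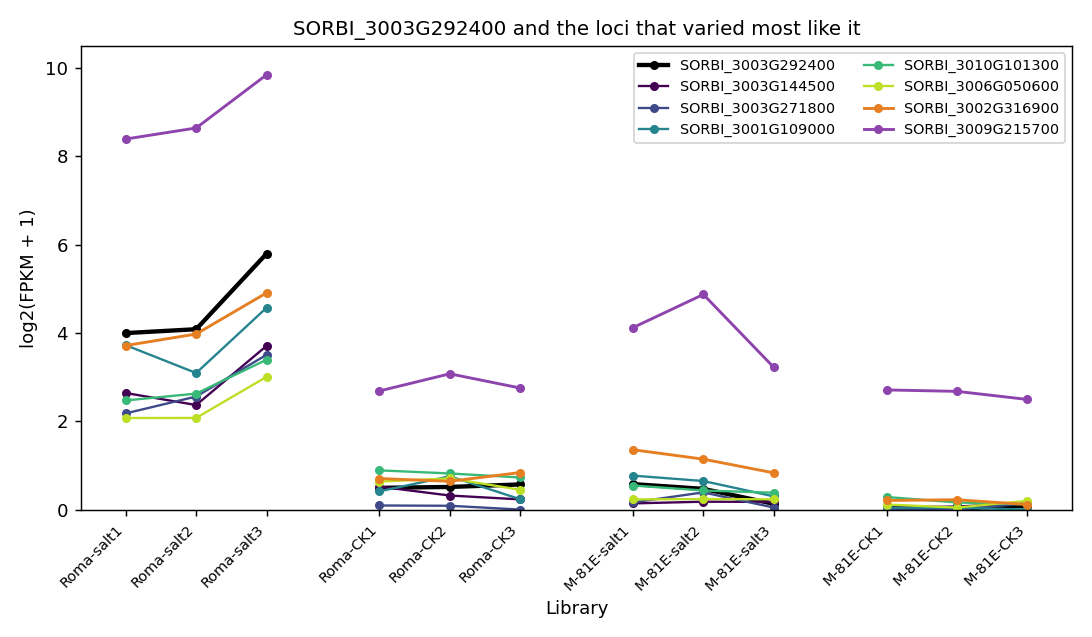
Level on the log2(FPKM + 1) scale (vertical axis) of SORBI_3003G292400, the 5 loci most alike, aconitase SORBI_3002G316900 and the LEA locus SORBI_3009G215700 in the 12 libraries (horizontal axis), with lines joining the libraries of a group. Each locus is highest in Roma-salt3, where SORBI_3003G292400 is at 5.80 on this scale, and the loci differ in how they order the other 3 groups.

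Next to these, SORBI_3010G081800 ranked 6 by r and is annotated with an ortholog of abscisic acid responsive element binding factors, transcription factors that act in abscisic acid signalling. It had 4.72, 4.33 and 10.1 FPKM in Roma-salt and 0.644, 0.345 and 0.918 FPKM in Roma-CK (log2 ratio 3.33), and 0.845, 0.954 and 0.310 FPKM in M-81E-salt and 0.281, 0.369 and 0.359 FPKM in M-81E-CK. Its log2 ratio in M-81E was 1.06, the libraries overlapped and it was not a DEG there. The paper lists this gene as a predicted microRNA target and reports it higher with salt in M-81E. That was by qRT-PCR and by sequencing, the latter with a p above 0.05 and a larger log2 ratio than the 1.06 found here. The source of that difference was not tested. SORBI_3005G210100, which ranked 7 and carries an ortholog of stachyose synthase, an enzyme of raffinose family sugars, was 6.25, 7.05 and 11.2 FPKM in Roma-salt and 1.32, 1.33 and 0.863 FPKM in Roma-CK. In M-81E it was 0.879, 0.681 and 0.924 FPKM with salt and 0.563, 0.558 and 0.596 FPKM in CK (log2 ratio 0.53). Both were named after their values were seen. The other malic enzymes were less alike: their r with SORBI_3003G292400 ran from -0.52 for SORBI_3009G108700 to 0.64 for SORBI_3001G201700.

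Loci next to SORBI_3003G292400 by identifier held 1 DEG in Roma and 0 in M-81E, beside 9.6% and 6.57% of all loci tested. Of the 3 on each side, SORBI_3003G292200, SORBI_3003G292300, SORBI_3003G292500, SORBI_3003G292600 and SORBI_3003G292700 were not DEGs in Roma or M-81E. SORBI_3003G292100, annotated as a pectinesterase, was 0.480, 0.386 and 0.650 FPKM in Roma-salt and 0.190, 0.0577 and 0.199 FPKM in Roma-CK, 3.39-fold higher in Roma-salt (log2 ratio 1.76, a DEG, limma adjusted p = 0.103). It was not a DEG in M-81E, where it was 0.209 to 0.271 FPKM with salt and 0.109 to 0.343 FPKM in CK.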

How the data were processed

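The authors used Bowtie2 and TopHat2 for mapping and StringTie for assembly, and they deposited a single FPKM table with a value per locus for 12 root libraries. Versions and the genome build are not given in the sources used here. The labels name a small RNA kit, whereas the paper describes rRNA-depleted, strand-specific libraries. Groups came from the sample titles, and the NaCl concentration from the paper. The FPKM hold no counts, so no interval or detection limit was computed, and a 0 can be a failed estimate.

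Loci above 0 FPKM in at least 1 library of a fit entered fits on log2(FPKM + 1) by limma (version 3.58.1, under R 4.3.3; eBayes with a trend), within each line or between CK groups. Thresholds for DEGs follow the paper, which used Ballgown. The interaction was fitted over 12 libraries and called at an adjusted p under 0.05. Benjamini-Hochberg adjustment was over all loci tested. The fits were tested on simulated data. Other steps used Python 3.11.15, scipy 1.17.1 and matplotlib 3.10.9.

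The locus and the lists were chosen with earlier results of these data known. Lists were to be taken from descriptions, but 77.9% of these say hypothetical protein, so GO terms, KEGG orthologs and KEGG pathways were used after the table was seen. Named loci were SORBI_3003G292400, the other malic enzymes, up to 4 DEGs per list by largest log2 ratio at a mean of at least 1 FPKM, the 5 most alike, 3 neighbours on each side and SORBI_3009G215700. Of the 30304 gene identifiers, 0 matched the RefSeq gene table, so no coordinates or sequences are given. Same-numbered libraries of salt and CK did not deviate together (r of -0.08 to 0.03 over 16181 loci), so the numbers were not used as pairs. Alternatives were a pseudocount of 0.1, a mean of at least 1 FPKM, a common median, one prior variance, no moderation, all 12 libraries in one fit, a replicate block, and each library left out.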

Additional observations from a re-analysis of the deposited data

Results flagged for a closer look

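Outside the loci chosen for likeness or from earlier results, the salt response of 2 named loci differed between Roma and M-81E. The measure was the interaction of line and treatment in limma, on the log2(FPKM + 1) scale. NAD-dependent malic enzyme SORBI_3002G309400 differed by -0.58 (SE 0.11, adjusted p = 0.0380) and alanine aminotransferase SORBI_3001G260800 by -1.15 (SE 0.21, adjusted p = 0.0309). Each was lower in all Roma-salt libraries than in Roma-CK and higher in all M-81E-salt libraries than in M-81E-CK. Over 18 alternatives each, the adjusted p missed 0.05 in 14 for the malic enzyme and in 10 for the aminotransferase, where it ranged from 0.0182 to 0.0811. The groups of 3 libraries were too small to test for single libraries that stand apart.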

How the results depend on the processing

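For SORBI_3003G292400 in M-81E the difference of 0.34 on the log2(FPKM + 1) scale kept its direction in all 12 alternatives run and lost the DEG call in 7 of them, with adjusted p between 0.0504 and 0.827 (limma). It was 0.34 with all 12 libraries in one fit (unadjusted p = 0.417) and 0.34 without moderation (unadjusted p = 0.0679), and 0.24 to 0.47 with each library left out. It was 1.47 with a pseudocount of 0.1, and the replicate block left it at 0.34 (unadjusted p = 0.0461). A minimum mean of 1 FPKM removed the locus from the M-81E fit and gave no value. The log2 ratio in Roma, a description, was 5.14 to 6.33 with each library left out and 6.03 with a common median. Other malic enzymes called in Roma numbered 0 with each library left out and 1 with the list by ortholog, where SORBI_3005G154800 was lower in Roma-salt. In M-81E they numbered 0 to 1 with each library left out, the 1 being without M-81E-salt3. The count with an interaction was 1, and it was 0 with a common median, 0 with a pseudocount of 0.1, 0 with the replicate block and 0 to 1 with each library left out. The count between lines in CK was 1, and it was 2 with a common median and 3 with the list by ortholog. The difference of SORBI_3003G280900 between lines in CK was -0.14 with a common median and 0.31 as deposited. The block changed no other malic enzyme call and gave 7 in place of 4 pyruvate metabolism DEGs in M-81E. Loci passing the interaction numbered 621, and 237 with the replicate block. Causes of these changes were not tested. The fragments behind an FPKM under 0.1 are not known, so the precision of the low M-81E values was not tested.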
